A study of Mus musculus with 2 samples.

Results

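The genes described here are 27 members of the cholesterol synthesis and uptake machinery, of 69691 rows in each of the deposited gene tables. They were chosen by symbol: 7 enzymes that build farnesyl diphosphate from acetyl-CoA, 11 enzymes that turn it through squalene into cholesterol, 5 genes of the sterol-sensing circuit and 4 genes of cholesterol trafficking and storage. All 27 were found, each as 1 row. The choice used no measured value, although earlier results of these data were known when it was made.

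Tissue labelled central nervous system was taken from embryos of the mouse strain C57BL/6J at embryonic day 11.5, with male and female littermates pooled. The libraries are stranded and paired-end, from polyadenylated RNA above 200 nt that had been depleted of ribosomal RNA. The labels name no mutation, treatment or transgene and give no dissection boundary. The 2 libraries, labelled biological replicates 1 and 2, form 1 group, so no contrast between conditions exists and no p-value is given. A difference between them measures only the spread between these samples.

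Cells make cholesterol from acetyl-CoA through the mevalonate pathway, whose intermediates also feed protein prenylation, ubiquinone and dolichol. SREBP transcription factors, held in the endoplasmic reticulum by Scap and Insig proteins when sterols are plentiful, drive the genes of synthesis and uptake when sterols are scarce. The developing brain comes to rely on its own synthesis as the blood-brain barrier closes, and cholesterol also takes part in Hedgehog signalling.

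Promoter windows from RefSeq (build GRCm38.p6), each running from 250 bases before a transcript start to 50 after it, were matched by symbol for 22 of the 27 members and gave 30 windows. Fdps, Fdft1, Sqle, Npc1 and Stard4 had no entry. The 6 sequences shown are the 250 bases before the RefSeq start. They belong to the highest member (Hmgcs1), the more abundant SREBP gene (Srebf2), the feedback inhibitor Insig1 and alternative first exons of Srebf1. Msmo1, the member whose most abundant transcript differed between the libraries, is also shown. Gene bounds given below for mm10 can differ from these starts. The stretches of Srebf2, Insig1 and Msmo1 run past the mm10 gene start, and those of Srebf1 lie within its gene bounds. Capitals mark 4 motifs searched on both strands: a sterol regulatory element, which binds SREBP, with the letters TCACNCCAC; the palindromic E-box, with the letters CACGTG; the CCAAT box, spelled by its name, which binds NF-Y; and the GC box of Sp factors, with the letters GGGCGG. No motif overlapped another in these sequences.
Hmgcs1 (chr13:119690101-119690350, plus strand): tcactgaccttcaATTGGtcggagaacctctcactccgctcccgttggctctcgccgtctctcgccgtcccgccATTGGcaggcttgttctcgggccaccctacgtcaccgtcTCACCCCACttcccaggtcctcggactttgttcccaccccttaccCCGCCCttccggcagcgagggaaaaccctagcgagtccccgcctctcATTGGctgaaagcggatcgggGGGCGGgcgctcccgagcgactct
Srebf2 (chr15:82147019-82147268, plus strand): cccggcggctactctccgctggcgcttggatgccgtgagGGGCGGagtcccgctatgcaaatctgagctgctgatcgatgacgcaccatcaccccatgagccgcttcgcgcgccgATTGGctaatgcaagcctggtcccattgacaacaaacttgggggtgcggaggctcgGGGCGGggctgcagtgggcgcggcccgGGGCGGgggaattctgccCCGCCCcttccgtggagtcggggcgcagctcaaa
Insig1 (chr5:28071162-28071411, plus strand): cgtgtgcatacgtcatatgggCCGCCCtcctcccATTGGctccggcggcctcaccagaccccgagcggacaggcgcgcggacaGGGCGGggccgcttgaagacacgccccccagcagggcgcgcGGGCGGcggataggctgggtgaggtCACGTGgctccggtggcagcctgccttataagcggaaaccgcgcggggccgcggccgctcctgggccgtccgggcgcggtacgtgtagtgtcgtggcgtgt
Msmo1 (chr8:64733579-64733828, minus strand): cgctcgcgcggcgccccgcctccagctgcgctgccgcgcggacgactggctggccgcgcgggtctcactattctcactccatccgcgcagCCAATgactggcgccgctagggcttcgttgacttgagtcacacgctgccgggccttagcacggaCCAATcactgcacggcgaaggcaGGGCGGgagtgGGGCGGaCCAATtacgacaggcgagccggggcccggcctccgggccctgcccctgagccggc
Srebf1 upstream first exon (chr11:60220628-60220877, minus strand): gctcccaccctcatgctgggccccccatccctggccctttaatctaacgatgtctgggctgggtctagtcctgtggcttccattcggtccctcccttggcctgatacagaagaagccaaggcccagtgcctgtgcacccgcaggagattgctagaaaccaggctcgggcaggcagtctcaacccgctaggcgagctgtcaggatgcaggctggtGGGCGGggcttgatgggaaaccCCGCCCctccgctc
Srebf1 downstream first exon (chr11:60210472-60210721, minus strand): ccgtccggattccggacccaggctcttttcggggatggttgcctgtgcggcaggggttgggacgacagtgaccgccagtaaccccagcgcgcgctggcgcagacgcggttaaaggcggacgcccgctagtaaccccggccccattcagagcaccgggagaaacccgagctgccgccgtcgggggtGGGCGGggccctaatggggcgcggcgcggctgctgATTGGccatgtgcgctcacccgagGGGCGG

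An exact match to the sterol regulatory element TCACNCCAC was present in 1 of the 30 member windows, that of Hmgcs1. There it began 137 bases before the start. It was present in 1.24% of all 32851 windows of the same length. The E-box stood in 6 windows, which belong to Hsd17b7, Sc5d, Dhcr7, Scap and Insig1, against 7.15% of all windows. The 2 windows of Scap overlap and hold the same E-box. That of Insig1 lies within the sequence printed for it. A CCAAT box was found in 21 of 30 windows, against 37.4% of all windows, and in 20 of the 22 genes; Acat2 and Scap lacked it. A GC box was found in 25 of 30 windows, against 35.7% of all windows, and only Pmvk had none among the 22 genes. Among the 8926 windows of genes at 10 TPM or more in both libraries, 10.2% held an E-box, 38.3% a CCAAT box and 65.9% a GC box. A match is a description of letters, and windows of 1 gene can overlap. Sites that differ from the given letters were not searched for, so a window without a match can still hold a variant of the element.

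Total expected counts were 126358805 and 111687579 in replicates 1 and 2. All 10 markers of the central nervous system, among them Sox2, Pax6 and Tubb3, reached 1 TPM, a level scaled to transcript length and library total, in each library, and their median was 132 ± 62.4 TPM (SD, n = 2). The libraries differed in tissue markers. All 14 Hox genes of paralogue groups 5 to 9 were at least 2-fold higher in replicate 2, with a median log2 ratio of 4.64, and 5 of 7 skeletal muscle markers were too, with a median of 4.37. Of 12 liver and yolk sac markers, 10 were at least 2-fold lower in replicate 2, with a median of -1.59, and the CNS markers had a median of -0.63 with 2 of 10 at least 2-fold lower. Summed levels were 10.8 and 270 TPM for the Hox genes, 30.7 and 128 TPM for muscle, and 1223 and 478 TPM for liver and yolk sac. The median log2 ratio was -0.19 for proliferation, 0.48 for mesenchyme, 0.44 for erythroid, 0.15 for endothelial and -0.10 for macrophage markers. In bulk tissue, fewer cells of a type and less RNA per cell cannot be told apart.

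All 27 members were at 1 TPM or more in both libraries, compared with 60.8% of 21474 protein-coding genes, and 26 were at 10 TPM or more in both. Their median level was 50.3 TPM in replicate 1 and 50.5 TPM in replicate 2. The 13047 protein-coding genes at 1 TPM or more in both libraries had a median mean level of 20.2 TPM, and 20 of the 27 members lay above it. Mean levels ran from 11.5 TPM (Npc1) to 207 TPM (Hmgcs1), an 18.0-fold range. The 18 enzymes summed to 1263 and 1251 TPM.

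**Figure D1:**
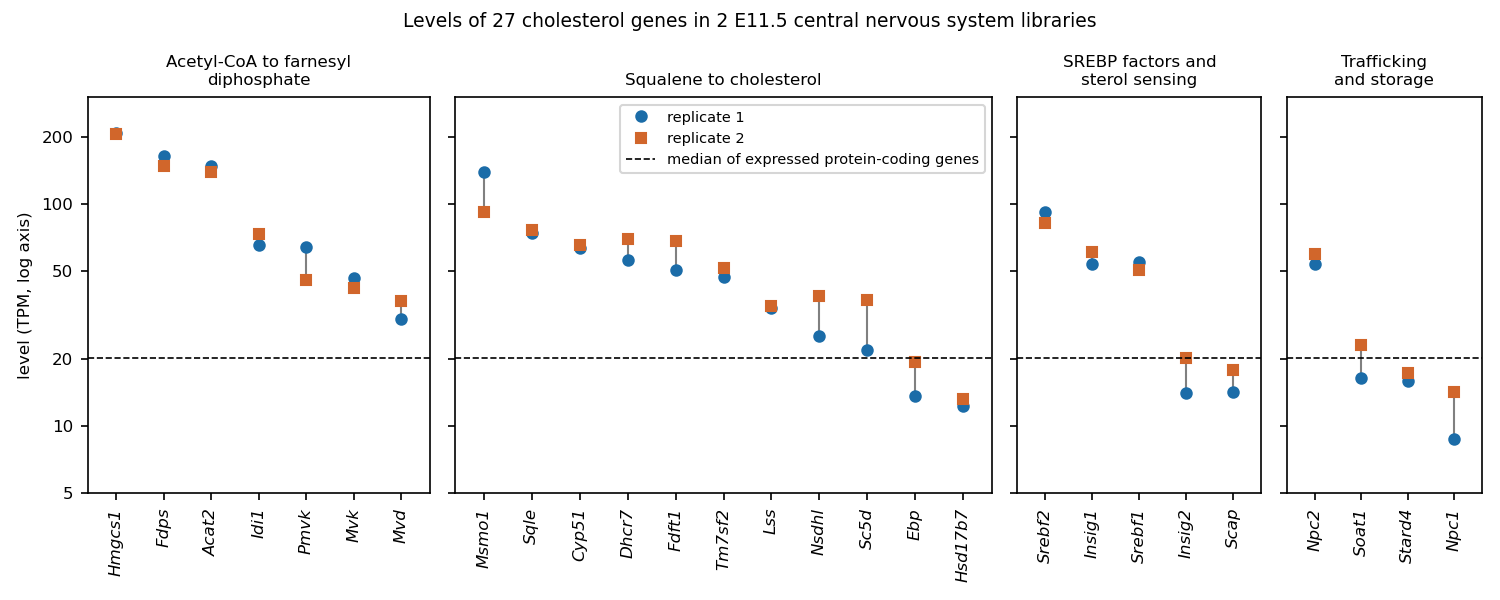
Level of each member in TPM on a log axis, by role, with 1 point per library and a grey line joining the 2 libraries; the dashed line is the median of expressed protein-coding genes at 20.2 TPM. Hmgcs1, Fdps and Acat2 stand highest and Npc1 lowest, and most pairs of points lie close together.

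The early enzymes held the 3 highest members. Hmgcs1 (chr13:119690379-119708260 in mm10), which condenses acetyl-CoA with acetoacetyl-CoA, was at 208 and 206 TPM in replicates 1 and 2. Fdps, the synthase that makes farnesyl diphosphate, was at 164 and 147 TPM. Acat2, the cytosolic thiolase that makes acetoacetyl-CoA, was at 148 and 138 TPM. The libraries of Hmgcs1 lay above those of Fdps, while Fdps and Acat2 overlapped. Idi1, which isomerises isopentenyl diphosphate, was at 65 and 73.1 TPM. The kinases that act in turn on mevalonate were lower: Mvk was at 46.3 and 41.9 TPM, and Pmvk at 63.5 and 45.4 TPM. Mvd, the decarboxylase after them, was the lowest of the 7, at 30.4 and 36.5 TPM. Acat2 and Hmgcs1 at the start of the segment and Fdps at its end were thus above the other 4 members of the segment in both libraries.

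Among the enzymes from squalene onward, Msmo1 (chr8:64718139-64733792 in mm10), which oxidises the methyl groups at carbon 4 of the sterol ring, had the highest mean, with 139 and 91.6 TPM. Sqle, the squalene epoxidase, was at 73.8 and 75.8 TPM, and Cyp51, which demethylates lanosterol, at 63.0 and 65.2 TPM. Fdft1, the squalene synthase that commits farnesyl diphosphate to sterols, was at 50.3 and 67.6 TPM. The libraries of Sqle lay above those of Cyp51 and Fdft1. Dhcr7, whose product is cholesterol and whose human counterpart is mutated in Smith-Lemli-Opitz syndrome, was at 56.0 and 69.4 TPM. Tm7sf2, a sterol reductase, was at 46.7 and 51.3 TPM, and Lss, which cyclises squalene epoxide to lanosterol, at 33.8 and 34.7 TPM. In the order Cyp51, Dhcr7, Fdft1 and Tm7sf2, each gene overlapped with the next, while Lss lay below all of them in both libraries.

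The remaining enzymes belong to the demethylation complex and the late steps. Nsdhl, the dehydrogenase that works after Msmo1, was at 25.5 and 38.6 TPM. Hsd17b7, the ketoreductase of the same complex, was at 12.3 and 13.2 TPM. By gene TPM, Hsd17b7 was the lowest of the 18 enzymes in both libraries. By the TPM of coding transcripts alone, Ebp was lower, at 6.21 and 9.71 TPM against 8.99 and 11.8 TPM of Hsd17b7, and Msmo1, at 44.5 and 45.3 TPM, was below Sqle, at 71.0 and 71.7 TPM. Sc5d, the sterol desaturase before Dhcr7, was at 22.0 and 36.7 TPM, and Ebp, the sterol isomerase before Sc5d, at 13.7 and 19.4 TPM. Both lay below Dhcr7 in each library.

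In the sterol-sensing circuit, Srebf2 (chr15:82147181-82205379 in mm10), whose product favours cholesterol genes, was at 91.9 and 82.2 TPM. Srebf1 (chr11:60199089-60222581 in mm10), whose products also drive fatty acid synthesis, was at 54.6 and 50.5 TPM. Srebf2 was thus 1.68 and 1.63 times as high as Srebf1 by gene TPM, and 3.31 and 2.65 times as high by the TPM of coding transcripts alone. The latter ratio depends on scaling to transcript length. The main coding transcript of Srebf1 held 41.2% and 40.2% of its TPM, but 7923 and 6110 of its 10814 and 9652 counts. A processed transcript of 945 nt was at 8.12 and 5.63 TPM with only 533 and 312 counts. Scap, the escort that carries SREBP to the Golgi, was lower, at 14.3 and 17.9 TPM. Insig1, itself an SREBP target, was at 53.5 and 60.3 TPM, and its relative Insig2 at 14.1 and 20.2 TPM. The ratio of Insig1 to Insig2 was 3.79 and 2.99, and neither pair of genes overlapped between libraries.

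The trafficking genes were unequal as well. Npc2, the soluble protein that hands cholesterol to Npc1 in the late endosome, was at 53.4 and 59.2 TPM. Npc1, the membrane transporter that moves it out, was at 8.78 and 14.2 TPM, so Npc2 was 6.08 and 4.16 times as high. Stard4, a sterol carrier between membranes, was at 15.9 and 17.4 TPM, and Soat1, which esterifies cholesterol for storage, at 16.4 and 23.1 TPM. Npc2 stood apart from the other 3, which are among the lowest members. In the order of all 27 by mean TPM, the libraries of neighbouring genes overlapped in 20 of 26 pairs, so the order within a band is not resolved.

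Counts were next compared between the libraries after scaling by TMM, as the log2 ratio of replicate 2 to replicate 1. None of the 27 members was 2-fold apart, compared with 11.4% of the 16511 genes with a count sum of at least 100. By direction the background was 6.35% of genes at least 2-fold higher in replicate 2 and 5.05% at least 2-fold lower. At 1.5-fold, 1 member differed, compared with 29.1% of genes. The members' count sums, 2784 to 100439, are high: among the 10154 genes with at least 2784 counts, 5.77% were 2-fold apart. The median size of the log2 ratio was 0.17 for the members, 0.35 for all genes and 0.29 for those 10154 genes. Of the members, 13 had a log2 ratio above 0 and 14 below, and the members' median was -0.02, beside -0.01 for all genes. Both this median and the individual directions depend on the scaling: with total counts the median of all genes moved to 0.12 and that of the members to 0.10, and on the log2(TPM + 1) scale to 0.12 and 0.13. Directions of Idi1, Insig1 and Npc2 flipped with total counts, and those 3 with Sqle, Lss and Cyp51 on the TPM scales.

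With TMM, the member over 1.5-fold was Pmvk (chr3:89454541-89469013 in mm10). Its counts were 5517 and 3303, a scaled level 1.63-fold higher in replicate 1 (95% interval 1.57 to 1.71, exact binomial). Such intervals cover counting error only. Sc5d lay farthest in the other direction, with 3856 and 5507 counts, 1.46-fold higher in replicate 2 (1.40 to 1.52). Npc1 followed with 3794 and 5259 counts, 1.42-fold higher in replicate 2 (1.36 to 1.48). These 3 kept their direction under each of the 4 other scalings tried, but the 1.5-fold call depended on the scaling. With total counts, Sc5d (log2 ratio 0.67) and Npc1 (0.63) passed 1.5-fold, and Pmvk (-0.58) fell just short. On the log2(TPM + 0.1) scale, Sc5d (0.74), Npc1 (0.69), Nsdhl (0.60) and Msmo1 (-0.60) passed it, and Pmvk (-0.48) did not.

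The counting interval excluded equality for 24 of the 27 members; the exceptions were Idi1, Insig1 and Stard4. It did so for 89.7% of the 10154 genes with at least 2784 counts, so the members' share is near that of genes of like depth. On this scale, in the segment up to farnesyl diphosphate, 6 of 7 enzymes had a higher scaled level in replicate 1, with a list median of -0.31, beside 50.6% of all genes tested. In the segment from squalene on, 7 of 11 were higher in replicate 2, with a median of 0.13, beside 49.4% of all genes. On the log2(TPM + 1) scale, 5 of 7 were higher in replicate 1, with a median of -0.11, beside 39.3% of all genes, and 10 of 11 were higher in replicate 2, with a median of 0.13, beside 60.5%. The median was -0.02 for the 5 sensing genes and 0.07 for the 4 trafficking genes. Whether the Hox, muscle and liver marker differences between the libraries play a part in these values was not tested.

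**Figure D2:**
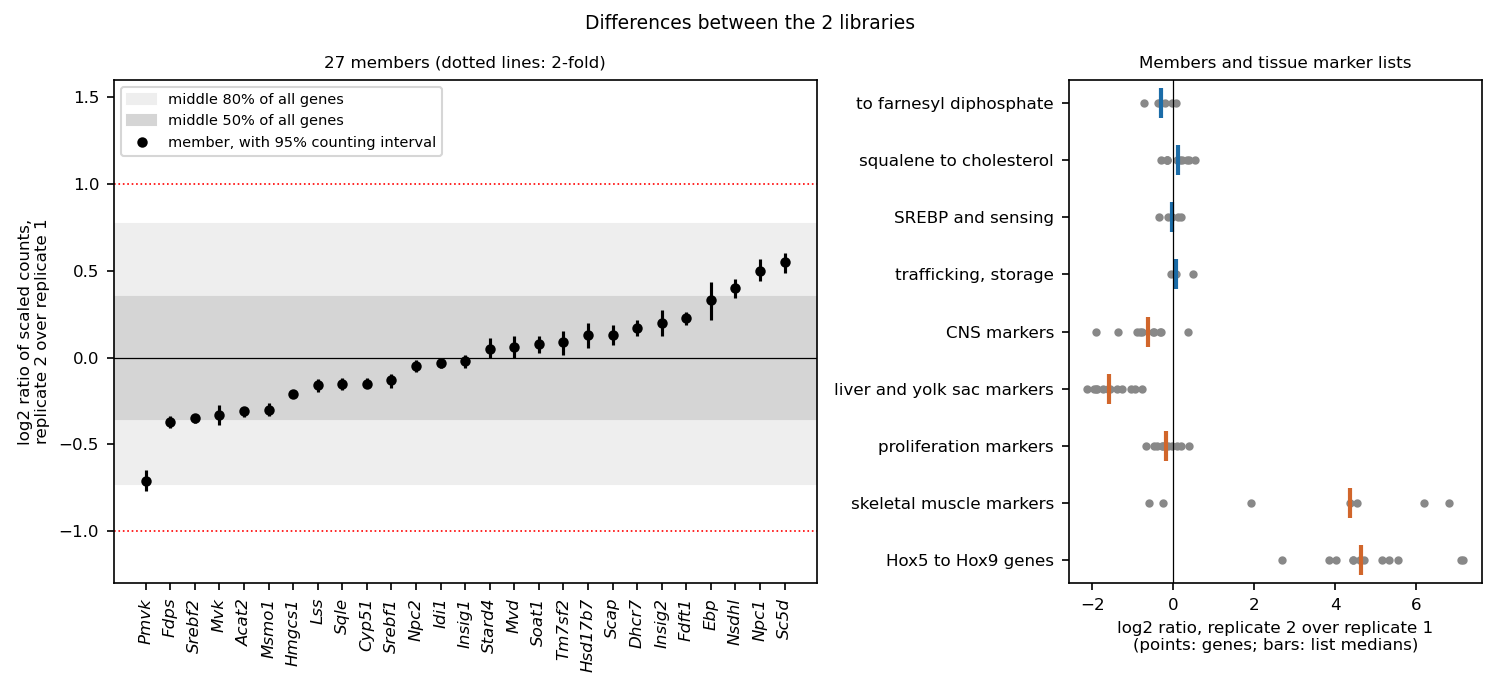
Left: log2 ratio of scaled counts (replicate 2 over replicate 1) for each member with its 95% counting interval, over bands that hold the middle 50% and 80% of all genes; dotted lines mark 2-fold. Right: the same ratio for genes (points) and list medians (bars) of the member groups and 5 marker lists. The members lie between -0.71 and 0.55, while the Hox and muscle lists have medians of 4.64 and 4.37.

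The X-linked members were Nsdhl and Ebp. Nsdhl was 1.32-fold higher in replicate 2 (1.27 to 1.37) and Ebp 1.25-fold (1.16 to 1.35). The 585 X-linked genes tested had a median log2 ratio of 0.15, and 59.7% of them were above 0, compared with 49.4% of all genes tested. The part of this shift in the values of Nsdhl and Ebp was not tested.

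Transcript estimates showed which forms make up each gene's level. The most abundant transcript was the same in both libraries for 25 of the 26 members at 10 TPM or more, compared with 84.1% of 8768 such genes. Of these members, 8 have a single annotated transcript, which fixes the outcome; among those with more it was 17 of 18, compared with 78.9% of 6597 genes. Npc1 was under that limit in replicate 1 and was left out. The exception was Msmo1. For 16 of the 27 members, transcripts annotated as other than protein coding made up under 5% of TPM in both libraries, compared with 47.1% of 8472 protein-coding genes at 10 TPM or more. For 10 of the 16 the annotation holds coding transcripts only. For 5 members (Lss, Tm7sf2, Msmo1, Ebp and Srebf1) they made up over 30% in both, compared with 17.6% of those genes.

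In Lss, the coding share was 62.0% in replicate 1 and 43.5% in replicate 2, and retained-intron transcripts made up 36.7% and 54.6%. In Ebp, retained-intron transcripts made up 54.6% and 49.8%, and in Tm7sf2 34.6% and 38.3%. Soat1 had 39.2% and 23.6%. By these estimates, a gene-level TPM of these members is not a level of coding mRNA: the coding transcripts of Lss summed to 21 and 15.1 TPM. TPM is scaled to transcript length, so a short transcript with few counts can hold a large share. In Soat1, a retained-intron transcript of 452 nt held 33.5% and 18.5% of TPM with 129 and 82.2 counts. The gene had 6383 and 6604 counts. In Lss, by contrast, a retained-intron transcript of 6992 nt had 2957 and 3112 counts. Dhcr7 was the only member with more than 5% of its TPM in transcripts annotated for nonsense-mediated decay, with 14.4% and 18.6%. That share came from a transcript of 721 nt with 376 and 503 counts, of 8127 and 8968 for the gene.

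**Figure D3:**
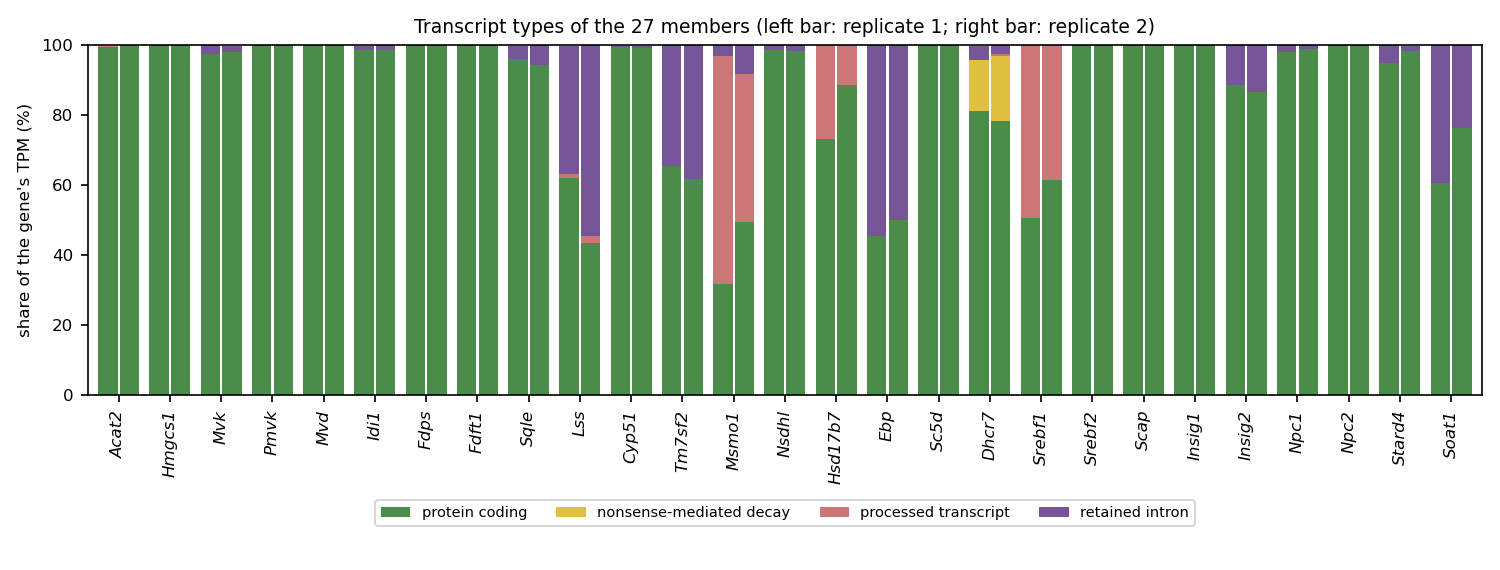
Share of each member's TPM by transcript type in replicate 1 (left bar) and replicate 2 (right bar). Lss, Tm7sf2, Ebp and Soat1 carry retained-intron shares, Msmo1 and Srebf1 processed-transcript shares, and 16 members have under 5% in other types.

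In the mm10 transcript estimates, the 1.52-fold higher TPM of Msmo1 in replicate 1 rested on 1 short transcript. A processed transcript of Msmo1 with 816 nt was estimated at 72.7 TPM in replicate 1 and 0.40 TPM in replicate 2, or 52.2% and 0.437% of the gene. The main coding transcript, of 2044 nt, was at 41.4 and 43.6 TPM, and all coding transcripts of Msmo1 summed to 44.5 and 45.3 TPM. By scaled counts the gene was only 1.23-fold higher in replicate 1 (1.20 to 1.26). Junction reads, deposited on the mm9 build with a first and a second value that no label ties to replicate 1 or 2, gave another view. The junction from the first exon of the short transcript (chr8:67199294-67200625 in mm9) had 0 and 2 reads. The coding transcript had 218 and 615 reads into the same splice site. That exon thus gave 0% (exact 95% interval 0 to 1.68%) and 0.324% (0.0393 to 1.17%) of the reads into that site. The 5 introns of the coding transcript had uneven reads, from 74 in intron 2 to 2024 in intron 5 of the first value, and from 354 to 1629 of the second. The mm9 gene values of Msmo1, also not tied to a replicate, were 20.6 and 11.9 RPKM, or 1.74-fold apart.

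Srebf1 has alternative first exons, of which 2 are compared here. The upstream one begins the SREBP-1a form, with 91 coding bases, and the downstream one begins the SREBP-1c form, with 19 coding bases. The promoter sequences of both are among those printed. Another promoter window of Srebf1 (chr11:60222532-60222831 in mm10) lies farther upstream, and a first exon there was not compared. SREBP-1a is known as the stronger activator of both cholesterol and fatty acid genes, and SREBP-1c as the form that dominates in adult liver. Reads joining the upstream exon to the shared second exon (chr11:60020760-60033954 in mm9) numbered 232 and 136. Reads from the downstream exon (chr11:60020760-60023837 in mm9) numbered 25 and 124. The downstream share was therefore 9.73% (exact 95% interval 6.39 to 14%) of 257 reads in the first value and 47.7% (41.5 to 54.0%) of 260 in the second. The intervals do not overlap, although the summed reads were almost equal. In the mm10 estimates, the Srebf1 transcript with the downstream exon was at 0.60 and 4.10 TPM in replicates 1 and 2, and that with the upstream exon at 22.5 and 20.3 TPM. Another coding transcript, of 4063 nt, was at 4.65 and 6.68 TPM and was not assigned to either exon. Both tables thus held a library with little of the downstream form and one with more, while Srebf1 as a whole differed 1.10-fold (1.07 to 1.13) in scaled counts. The part of the tissue marker differences in this was not tested.

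**Figure D4:**
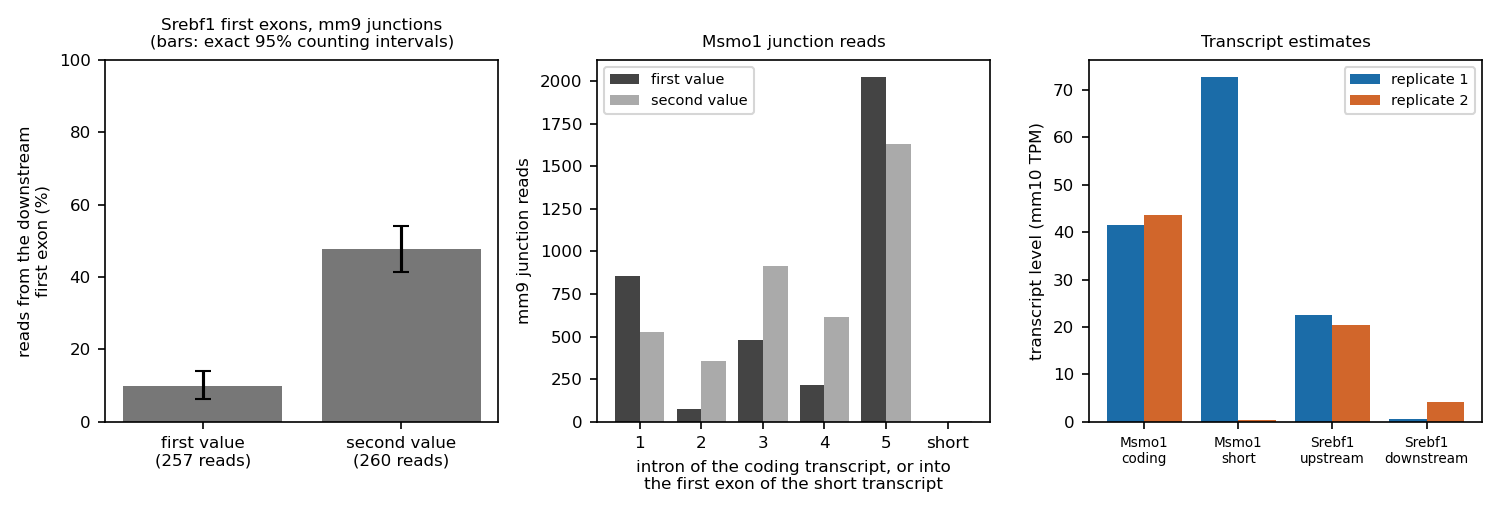
Left: percent of Srebf1 first-exon junction reads that come from the downstream exon, with exact 95% counting intervals. Middle: mm9 junction reads over the introns of the Msmo1 coding transcript and from the first exon of the short one. Right: mm10 TPM of the Msmo1 and Srebf1 transcripts. The Srebf1 share is 9.73% and 47.7%, and the short Msmo1 transcript is high in replicate 1 only while its own junction has 0 and 2 reads.

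Some members share sequence with other genes, which can move counts between them. Sense matches of at least 200 nt at 90% identity or more were found for 4 members. Acat2 matched Acat3 at 97.7% over 1477 nt, and Acat3 had 73 and 123 counts against 25959 and 20433 of Acat2. Fdft1 matched the pseudogene Gm6781 at 97.4%, which had 17 and 7 counts. Fdps matched several pseudogenes, of which Gm3571 was the closest at 98.9%, with 40 and 25 counts. It also matched Gm43738 at 100% over 751 nt. Idi1 matched the pseudogene Gm13502 at 100% over 684 nt, and Gm13502 had 160 and 53 counts beside 15380 and 14783 of Idi1. The deposited posterior SD of the counts was at most 0.695% of the count, in Tm7sf2. Levels of these 4 members are uncertain to the extent that the counting could not place such reads. On the opposite strand, transcripts of Tcp1 matched Acat2 at 98.7% over 445 nt and had 50077 and 43038 counts. Those of Ctsb matched Fdft1 at 100% over 771 nt and had 13720 and 16286 counts. Those of Rmc1 matched Npc1 at 100% over 323 nt and had 3022 and 3187 counts, beside 3794 and 5259 of Npc1. Whether the counting used the strand is not given in the sources used here.

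Among 65 other genes in 7 lists of neighbouring pathways, 64 were at 1 TPM or more in both libraries. At least 2-fold apart were 3 (4.62%), 1 higher in replicate 2 and 2 lower, beside 11.4% of all genes tested. The share was 5.77% among the 10154 genes with at least 2784 counts, a depth that not all listed genes reach. None of the 3 was in the isoprenoid branches (14 genes, median 20.4 TPM) or in fatty acid synthesis (13 genes, 26.0 TPM). Nor was any in SREBP processing and sterol-regulated degradation (9 genes) or in efflux and LXR (6 genes, 9.32 TPM). By mean TPM the isoprenoid, fatty acid and efflux lists ran from Pdss2 (8.89 and 9.13 TPM) to Rabggtb (77.6 and 66.3 TPM), from Acacb (2.38 and 3.13 TPM) to Scd2 (276 and 301 TPM), and from Nr1h3 (2.76 and 2.59 TPM) to Nr1h2 (69.4 and 68.4 TPM). The highest of the SREBP processing list was Pgrmc1 (130 and 142 TPM).

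Lipoprotein receptors and uptake genes had a median of 12.5 TPM over 9 genes, from Lrp2 to Lrp1 (132 and 108 TPM). Lrp2, the endocytic receptor megalin, was at 4.44 and 2.36 TPM and was 2.14-fold higher in replicate 1. Oxysterol synthesis genes had a median of 7.34 TPM over 5 genes, from Cyp7b1 (1.12 and 1.86 TPM) to Cyp46a1 (14.1 and 10.5 TPM), which encodes the brain cholesterol hydroxylase. Ch25h, an oxysterol-making hydroxylase, was at 0.270 and 2.79 TPM, with 27 and 237 counts, and was 8.82-fold higher in replicate 2. Sterol transfer genes had a median of 28.1 TPM over 9 genes, from Gramd1c (1.56 and 1.94 TPM) to Scp2. Scp2, the sterol carrier protein gene, was at 288 and 132 TPM and 2.04-fold higher in replicate 1. With total counts, Lrp2 was 1.96-fold and Scp2 1.87-fold higher in replicate 1, under the 2-fold limit, and on the log2(TPM + 1) scale Lrp2 was 1.62-fold higher and Ch25h 2.98-fold higher in replicate 2.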

How the data were processed

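Gene and transcript tables of both libraries use mm10 and annotation M4, as the deposited notes state. The authors deposited an expected count, which need not be whole, with TPM and FPKM per gene, per the file headers. For the whole series they deposited mm9 Ensembl 65 gene tables with 2 RPKM values per gene and a junction list with 2 read counts per junction, per the file headers. Which of these values is replicate 1 is not labelled. For the aligner and quantifier, no name is given in the sources used here.

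Expected counts of 43346 Ensembl rows, 95.3% and 96.7% of all counts, were rounded and scaled with edgeR 4.0.16 (TMM) and, as an alternative, with the size factors of DESeq2 1.42.0. The log2 ratio sets replicate 2 against replicate 1, each with 0.5 counts added, for genes whose counts sum to at least 100, and the fold rule was checked on simulated counts. With 2 libraries in 1 group no test was run. Intervals are exact (Clopper-Pearson) 95% binomial intervals from scipy 1.17.1 and cover counting error only. Transcript types and positions come from GENCODE M21, matched sequence in other transcripts from BLAST 2.17.0, and promoters from RefSeq. All 27 members are named; of pathway lists, the highest and lowest gene by mean TPM and every gene 2-fold apart. A gene that this rule would name is not reported here. Values from coding transcripts alone, and from genes with more than 1 transcript, were added after seeing the data. Members, lists and rules were chosen with earlier results of these data known.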

Additional observations from a re-analysis of the deposited data

How the results depend on the processing

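No paired analysis was possible because both libraries belong to 1 group and no groups are compared. All 27 members were also at 5 TPM or more in both libraries. Leaving out either library could not change the count at 1 TPM, since all 27 pass it in both. The members' median level of 52.5 TPM (median of the mean levels) was 50.3 to 50.5 TPM with either library left out and 35.0 in FPKM, a unit that is not scaled to the same sum. No member was 2-fold apart under TMM, DESeq2 size factors, total counts, log2(TPM + 1) or log2(TPM + 0.1). A lower minimum count could not change this, since every member's counts sum to 2784 or more. With 1.5-fold in place of 2-fold the number was 1 under TMM, and which members passed 1.5-fold changed with the scaling. The members' median log2 ratio of -0.02 was 0.10 with total counts, 0.13 on log2(TPM + 1) and 0.13 on log2(TPM + 0.1), where the median of all genes was 0.12, 0.12 and 0.14, so the members moved with all genes. The same most abundant transcript was found for 26 of 27 members at 1 TPM, compared with 85.3% of all genes at that limit. At 20 TPM it was 19 of 20, compared with 82.5%. On the gene strand only, 11 member windows held a CCAAT box, against 21 on both strands, since fewer matches can be counted. Of all windows, 21.1% held it on the gene strand and 37.4% on both. The members' counts sum to 2784 or more, whereas the Srebf1 first-exon shares rest on 257 and 260 reads and no replicate check exists beyond the 2 libraries.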

Other observations

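The mm9 tables hold 26 of the 27 members; Hmgcs1 was not matched by identifier. Over these 26 genes the mean mm9 RPKM and the mean mm10 TPM had a Spearman correlation of 0.94, which describes the same libraries processed in separate ways. The 5 highest of these members were the same in both: Fdps, Acat2, Msmo1, Srebf2 and Sqle. Tm7sf2 had mm9 RPKM values of 5.40 and 11.7, which are 2.17-fold apart, while its mm10 counts were 1.06-fold higher in replicate 2 after scaling (95% counting interval 1.01 to 1.11).

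Annotated mm9 junction reads per 100 mm10 counts had a median of 56.9 over the 26 members and ran from 0.935 to 112. Idi1 was the lowest, with 282 junction reads over its 4 annotated introns beside 15380 and 14783 counts. The next lowest member, Stard4, had 15.6 per 100 counts, and Mvk was the highest. Idi1 is also the member with 684 nt identical to the pseudogene Gm13502. Whether that match plays a part in its junction reads was not tested.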
